A study of Mus musculus with 2 samples.

Results

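The data described here are the array values of 9 genes that LIF or STAT3 is known to act on, or that feed back on this signal: Socs3, Pim1, Bcl3, Bcl6, Myc, Mcl1, Icam1, Gbx2 and Tfcp2l1. Their spots were found by gene name, and each gene was present as 1 cDNA clone and 1 spot among the 8735 gene spots of the array. The arrays carried gene names and not symbols, so Socs3 was matched as cytokine inducible SH2-containing protein 3, Icam1 as intercellular adhesion molecule and Tfcp2l1 as Tcfcp2-related transcriptional repressor 1. Whole B6CBF1 mouse embryos, labelled as 4 d of age, had been injected in the cytoplasm at the zygote stage with siRNA against LIF or with scrambled siRNA. The titles and source names of both samples give these groups, but a description field in the same labels speaks of untreated embryonic stem cells and of 4 replicates, so the labels do not settle on one account. The groups below follow the titles and source names, and the direction of each ratio rests on them. The labels give 1 pl and 1.0 fmol for both siRNAs, whereas the methods give a larger amount. RNA of pooled morulae with LIF-siRNA was labelled with Cy5 and that with scrambled siRNA with Cy3, and both were hybridised together on each of 2 arrays. All values below are therefore ratios of LIF-siRNA over scrambled siRNA within an array, on the log2 scale unless named otherwise, and the dyes were not swapped, so dye and treatment cannot be told apart. LIF itself was not found by name among the spots, so the knockdown could not be checked on these arrays. In pools of whole embryos, fewer cells of a type and less RNA per cell cannot be told apart.

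LIF binds a receptor made of LIFR and gp130, which activates JAK kinases, and these phosphorylate STAT3, a transcription factor that then enters the nucleus. Among its known targets are genes whose products shut the signal off, as Socs3 does by blocking the JAK kinases, and genes of growth and survival, such as the kinase gene Pim1, Myc and Mcl1. In mouse embryonic stem cells, LIF and STAT3 are known to hold the pluripotent state in part through transcription factors such as Gbx2 and Tfcp2l1. The comparison asks what the RNA of these genes did in morulae with less LIF.

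STAT dimers bind a known palindrome, TTCNNNGAA, and the windows around the gene starts were searched for it. RefSeq windows (GRCm38.p6) of 300 bases, 250 before to 50 after a start, were matched for 8 of the 9 genes, with 10 windows in all, and the entry not found was Myc. The letters TTCNNNGAA, which read the same on both strands, stood in 4 of the 10 windows (40%), against 8.3% of 32851 windows of all genes. The narrower form TTCCNGGAA, every match of which is also a match of the wider one, stood in 2 of the 10 (20%) and in 1.15% of all windows. By gene, 3 of the 8 had a match of the wider form, since Bcl6 had matches at more than 1 start. The genes were chosen as known targets, so these shares are a description and not a test. The 4 windows with a match belong to Socs3, Icam1 and Bcl6, and the 250 bases before the start are shown for each because they hold the letters in question. Matches are in capitals, and all lines run 5′ to 3′ on the strand of the gene.
Socs3, chr11:117969367-117969616, minus strand: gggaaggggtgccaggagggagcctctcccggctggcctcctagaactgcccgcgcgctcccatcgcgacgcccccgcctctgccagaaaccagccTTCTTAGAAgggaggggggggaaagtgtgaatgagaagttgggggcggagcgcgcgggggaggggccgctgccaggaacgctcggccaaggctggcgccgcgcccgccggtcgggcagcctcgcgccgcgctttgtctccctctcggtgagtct
Icam1, chr9:21015690-21015939, plus strand: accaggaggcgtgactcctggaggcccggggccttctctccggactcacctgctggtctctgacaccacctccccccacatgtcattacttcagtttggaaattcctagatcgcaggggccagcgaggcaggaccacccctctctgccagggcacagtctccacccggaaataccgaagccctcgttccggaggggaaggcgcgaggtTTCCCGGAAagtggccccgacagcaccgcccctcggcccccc
Bcl6, chr16:23988853-23989102, minus strand: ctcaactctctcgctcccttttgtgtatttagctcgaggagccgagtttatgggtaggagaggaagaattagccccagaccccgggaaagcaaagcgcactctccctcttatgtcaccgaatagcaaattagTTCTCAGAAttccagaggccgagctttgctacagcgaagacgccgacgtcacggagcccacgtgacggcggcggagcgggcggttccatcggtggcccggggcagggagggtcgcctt
Bcl6 (another start), chr16:23981284-23981533, minus strand: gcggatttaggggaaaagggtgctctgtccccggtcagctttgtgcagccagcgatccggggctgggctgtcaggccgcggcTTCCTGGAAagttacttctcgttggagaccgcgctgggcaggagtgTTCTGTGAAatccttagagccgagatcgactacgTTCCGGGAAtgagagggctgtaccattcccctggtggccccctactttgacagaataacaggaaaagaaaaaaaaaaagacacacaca
The match in Socs3 begins 154 bases before the start, that in Icam1 42 bases before it. Bcl6 had 1 match at one start, 118 bases before it, and 3 at the other, 168, 122 and 88 bases before it. These are letters in a window, and the arrays hold no measure of STAT3 binding.

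The spots of 8 of the 9 genes were well above background in both channels on both arrays, by the flags of the scanner software, and none was saturated. Those background flags were also met by 7575 of the 8712 gene spots without an outlier mark, so 8 of 9 was near the rate of the array. Among the 9 genes the exception was Bcl3, a partner of NF-kappaB proteins, whose spot was not well above background in either channel of either array. Its processed signal (background subtracted and dye-normalized, in scanner units) was 14.9 in Cy5 and 24.9 in Cy3 on array 1, and 18.2 and 15.04 on array 2. The median blank spot had 9.46 in Cy5 and 13.8 in Cy3 on array 1, and 8.05 and 17.4 on array 2. Bcl3 lay above 89.6% of blank spots in Cy5 and 84.9% in Cy3 on array 1, and above 93.7% and 11.9% on array 2. Its signal was thus within the range of blank spots, and no ratio is given for it. A mean signal above 1000 in either channel, the level the study asked of a changed gene, was reached by 4 of the 9, namely Socs3, Pim1, Mcl1 and Tfcp2l1. The median gene spot had 470 in Cy5 and 472 in Cy3 on array 1, and 490 and 484 on array 2. The share of all spots above 1000 is not given here, so the count of 4 is not set against it.

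**Figure D1:**
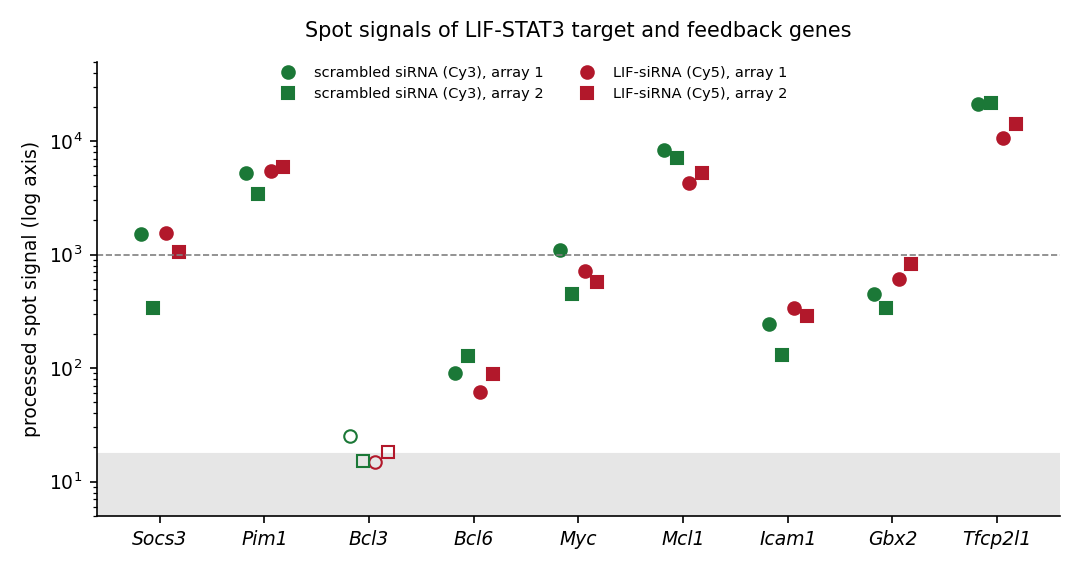
Processed spot signal (log axis, scanner units) of the 9 genes in the scrambled siRNA channel (Cy3, green) and the LIF-siRNA channel (Cy5, red) on array 1 (circles) and array 2 (squares). Open symbols mark Bcl3, which was not well above background; the dashed line is a signal of 1000 and the grey band ends at the median Cy3 signal of blank spots on array 2 (17.4).

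Of the feedback and early targets, Socs3 and Pim1 had ratios close to 0 on array 1 and above 0 on array 2. Socs3, the inhibitor of JAK kinases, had a signal of 1544 with LIF-siRNA and 1514 with scrambled siRNA on array 1, and 1063 and 338 on array 2. On the log2 scale this gave 0.03 and 1.65. The scrambled siRNA signal of Socs3 was 4.48-fold higher on array 1 than on array 2, whereas its LIF-siRNA signal was 1.45-fold higher, so that the larger difference between the arrays lay in the scrambled channel. The mean log2 ratio was 0.84 ± 1.15 (SD, n = 2), with an adjusted p of 0.252 in limma and a 95% interval of -0.27 to 1.95. Pim1, a serine/threonine kinase of growth and survival, had signals of 5439 with LIF-siRNA and 5183 with scrambled siRNA on array 1, and 5893 and 3434 on array 2. Its log2 ratios were 0.07 and 0.78, with a mean of 0.42 ± 0.50 (SD, n = 2) and an adjusted p of 0.331 in limma. Both array 1 values lay within the error that the software gives a single spot (0.19 for Socs3 and 0.18 for Pim1), and their sign there rested on the scaling. Without dye normalization, where the median of all probes was -0.20 on array 1 and 0.14 on array 2, the array 1 ratio was -0.20 for Socs3 and -0.16 for Pim1.

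Bcl6, a transcriptional repressor, had the closest pair of ratios among the 8 genes, from a dim spot. Its signals were 61.7 with LIF-siRNA and 89.6 with scrambled siRNA on array 1, and 89.2 and 128 on array 2. The log2 ratios of -0.54 and -0.53 were so close that 2.36% of all probes had a smaller gap. The single-spot error of these ratios was 0.84 and 0.60, larger than the ratios themselves. With the mean at -0.53 ± 0.01 (SD, n = 2), limma gave an adjusted p of 0.165. The ratios of Bcl6 were -0.24 and -0.28 with another background correction and loess together, -0.52 and -0.15 with each array centred on its median, and -0.72 and -0.01 without dye normalization, so that the gap between them varied with the scaling.

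Of the growth and survival genes, Myc had opposite signs on the arrays and Mcl1 was below 0 on both. Myc, a transcription factor of cell growth, had signals of 720 with LIF-siRNA and 1097 with scrambled siRNA on array 1, and 576 and 452 on array 2. Its log2 ratios were -0.61 and 0.35, so no direction can be given for it. The mean was -0.13 ± 0.68 (SD, n = 2), with an adjusted p of 0.802 in limma. Mcl1, a member of the Bcl-2 family that keeps cells from apoptosis, had signals of 4310 with LIF-siRNA and 8335 with scrambled siRNA on array 1, and 5195 and 7047 on array 2. Its log2 ratios of -0.95 and -0.44 were both over 2 spot errors below 0 (errors of 0.20 and 0.19). As a fold, the scrambled siRNA signal of Mcl1 was 1.93 times that of LIF-siRNA on array 1 and 1.36 times on array 2. The mean of -0.70 ± 0.36 (SD, n = 2) had an adjusted p of 0.134 in limma, and of 0.040 with an intensity trend in its prior. With that trend limma called 1133 of all 8079 probes, against 0 without it.

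Icam1, a cell adhesion molecule that leukocyte integrins bind, was above 0 on both arrays. Its signals were 336 with LIF-siRNA and 246 with scrambled siRNA on array 1, and 286 and 131 on array 2. The log2 ratios were 0.45 and 1.13, which are ratios of 1.36 and 2.19, and the mean was 0.79 ± 0.48 (SD, n = 2), with an adjusted p of 0.126 in limma.

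The pair of transcription factors known from embryonic stem cells lay on opposite sides of 0. Gbx2, a homeobox factor, had signals of 606 with LIF-siRNA and 447 with scrambled siRNA on array 1, and 828 and 337 on array 2. Its log2 ratios were 0.44 and 1.30, and its mean of 0.87 ± 0.61 (SD, n = 2) was the highest of the 8 with the deposited ratios (adjusted p = 0.126, limma). On the single arrays the highest were Icam1 (0.45, against 0.44 for Gbx2) and Socs3 (1.65, against 1.30). The order of the means depended on the scaling too, since Icam1 was higher than Gbx2 with each array centred on its median (0.91 against 0.86) and without dye normalization (0.88 against 0.83). Tfcp2l1, a factor of the CP2 family, had signals of 10656 with LIF-siRNA and 21093 with scrambled siRNA on array 1, and 14118 and 21861 on array 2. The scrambled siRNA signal of Tfcp2l1 was thus nearly equal on both arrays. Its log2 ratios were -0.99 and -0.63, with spot errors of 0.20 and 0.19, and its mean of -0.81 ± 0.25 (SD, n = 2) was the lowest of the 8, as it was under the 3 other scalings run. The adjusted p was 0.101 in limma, the smallest of the 8, and the 95% interval of the mean ran from -1.38 to -0.23 before adjustment for the number of probes. Tfcp2l1 passed the threshold of 0.05 in 2 other settings of the test, given in the closing section.

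**Figure D2:**
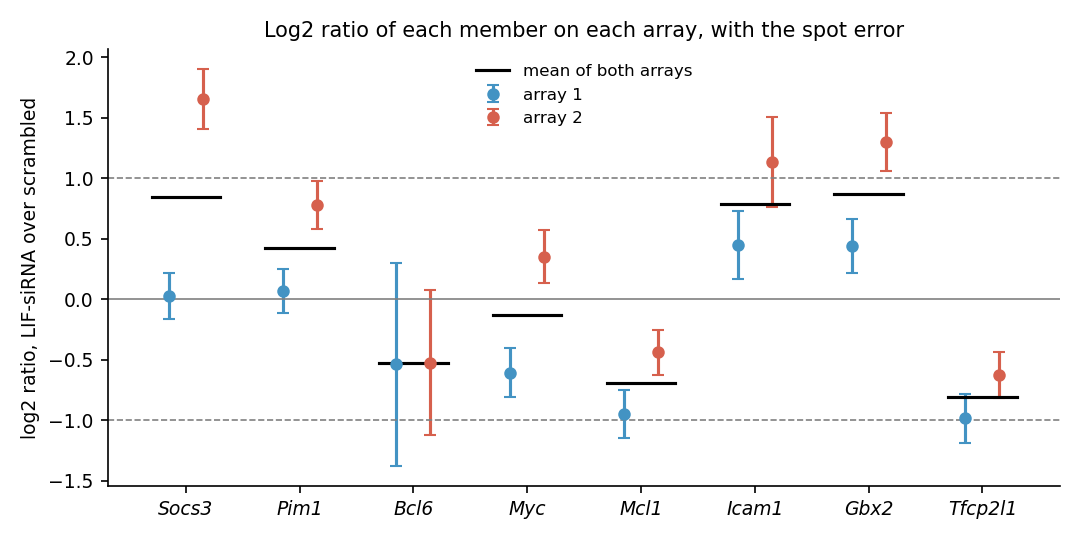
Log2 ratio of LIF-siRNA over scrambled siRNA for the 8 genes above background, on array 1 (blue) and array 2 (red), with bars of 1 single-spot error from the scanner software on each side and a black line at the mean of both arrays. Dashed lines mark log2 ratios of -1 and 1; Myc lies on both sides of 0, and the bars of Bcl6 are the longest.

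By limma across the 8079 probes tested, an adjusted p under 0.05 was reached by 0 of the 8, as by 0% of all probes, and the smallest adjusted p of any probe was 0.058. With 2 arrays, limma called 4 of the 8 at an unadjusted p under 0.05, against 30.7% of all probes. Of these, Gbx2 and Icam1 were higher after LIF-siRNA, against 15.9% of all probes, and Tfcp2l1 and Mcl1 were lower, against 14.8%. The log2 ratio was above 0 on both arrays for 4 of the 8 (36.7% of all probes) and below 0 on both for 3 (36.8%). A single sign on both arrays was thus seen in 7 of the 8, near the 73.5% of all probes. Without dye normalization it was seen in 5 of the 8, against 67.9% of all probes under that scaling, and Socs3 and Pim1 were then below 0 on array 1. The log2 ratio lay over 2 spot errors from 0 on both arrays and on the same side for Tfcp2l1 and Mcl1, 2 of the 8, against 22.3% of all probes. By the study's thresholds, a mean ratio above 2 or below 0.5 and a mean signal above 1000, 0 of the 9 genes passed, against 4.35% of all spots (2.16% above and 2.19% below). The median of the mean log2 ratios was 0.15 over the 8 genes and -0.00 over all probes, and the median of the 8 genes was -0.26 on array 1 and 0.57 on array 2.

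**Figure D3:**
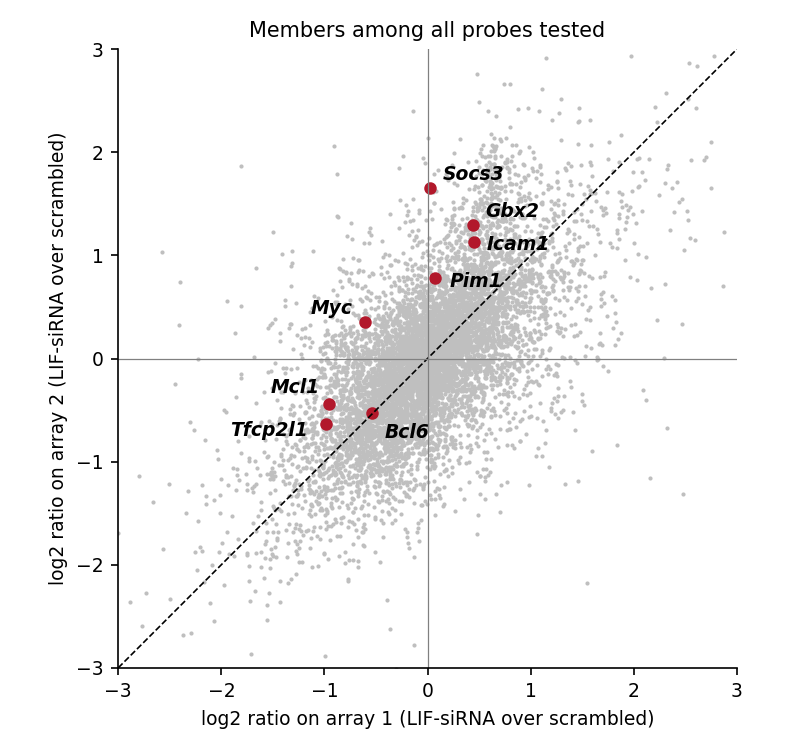
Log2 ratio on array 1 (horizontal) against array 2 (vertical) for the 8079 probes tested (grey) and the 8 genes (red, named); 18 probes lie outside the axes. The dashed line marks equal ratios, and the 8 genes lie on or above it.

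The log2 ratio of Bcl6 was nearly equal on both arrays, and those of the other genes differed between the arrays in one direction. This comparison of the arrays was not in the plan. The log2 ratio was higher on array 2 than on array 1 for 8 of the 8, against 49.6% of all probes, by 0.01 for Bcl6, 0.35 for Tfcp2l1, 0.51 for Mcl1, 0.68 for Icam1, 0.71 for Pim1, 0.86 for Gbx2, 0.96 for Myc and 1.63 for Socs3. With the background-subtracted signals centred on their median the count was also 8 of 8, against 48.3% of all probes. With another background correction and loess it was 7 of 8, against 51.6%, and Bcl6 was the exception. Without dye normalization, where 72.9% of all probes had the higher ratio on array 2, the count of 8 of 8 adds little. The median of this difference was 0.70 over the 8 genes and -0.00 over all probes, and the median SD between arrays was 0.49 and 0.25. The gap was over 2 combined spot errors for Socs3, Myc, Pim1 and Gbx2, 4 of the 8, against 16.5% of all probes. For Socs3, 98.0% of all probes had a smaller gap.

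Seen by channel, the scrambled siRNA signal was lower on array 2 than on array 1 for 6 of the 8 genes, against 45% of all probes, and the LIF-siRNA signal was higher for 5 of the 8, against 53.6%. The change of the scrambled siRNA signal from array 1 to array 2 was -2.17 for Socs3, -1.28 for Myc, -0.92 for Icam1, -0.59 for Pim1, -0.41 for Gbx2 and -0.24 for Mcl1 on the log2 scale. It was 0.05 for Tfcp2l1 and 0.52 for Bcl6, and the median of all probes was 0.04. Of all probes, 0.0743% had a lower value than Socs3 and 0.755% a lower value than Myc. The change of the LIF-siRNA signal ran from -0.54 for Socs3 to 0.53 for Bcl6, with a median of 0.03 over all probes. Signals of the arrays were not scaled to each other, and differences in the embryos, the RNA or the hybridisation behind these values were not tested.

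**Figure D4:**
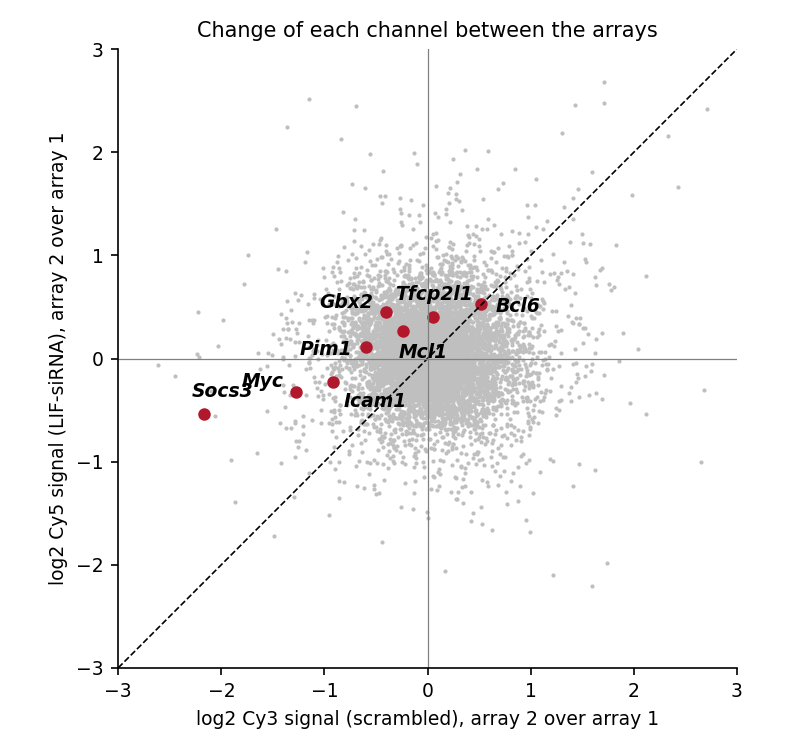
Log2 change from array 1 to array 2 of the scrambled siRNA signal (Cy3, horizontal) and of the LIF-siRNA signal (Cy5, vertical) for the 8079 probes tested (grey) and the 8 genes (red, named); 2 probes lie outside the axes. Socs3, Myc and Icam1 lie to the left at -2.17, -1.28 and -0.92, and genes above the dashed line have a higher ratio on array 2.

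With the deposited ratios, the probes most like the genes with the highest and the lowest mean were sought among named probes with a mean signal above 1000, by the distance between the pairs of log2 ratios. For Gbx2 the nearest of 1645 probes was immunity-associated protein, 38 kDa, at ratios of 0.47 and 1.30 and a distance of 0.03. It was followed by cathepsin F, a lysosomal protease, at 0.45 and 1.15, and by discoidin domain receptor family, member 1, a collagen receptor, at 0.40 and 1.14. For Tfcp2l1 the nearest of 1644 probes was calmodulin, the calcium sensor, at ratios of -0.96 and -0.62 and a distance of 0.03. The next were the polo-like kinase homolog, a mitotic kinase, at -0.99 and -0.68, and epidermal fatty acid binding protein 5 at -0.96 and -0.58. With 2 arrays, likeness here means only that 2 ratios were close.

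Other genes of the pathway were taken from 6 lists with 58 genes on the array, of which 56 could be tested. In limma 0 of the 56 had an adjusted p under 0.05. At an unadjusted p, 8 were higher and 7 lower, 15.9% and 14.8% being the shares of all probes. The ratio was above 0 on both arrays for 23, below 0 on both for 21 and of opposite sign for 12, against 36.7% of all probes above and 36.8% below. Without dye normalization 16 were above and 22 below, where 67.9% of all probes had a single sign and 36.6% were below on both arrays. With the deposited ratios the median of the mean log2 ratios was -0.06. The log2 ratio was higher on array 2 than on array 1 for 30 of the 56, against 49.6% of all probes.

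Of the receptors and kinases upstream, LIFR, gp130, JAK1, JAK2 and STAT3 were not found by name. Of the cytokines and receptors of the gp130 family, Ctf1 was at 0.25 and 1.45, Il11ra1 at 0.13 and -0.00107 and Osmr at 0.01 and -0.22. Of these 3 genes, 1 was above 0 on both arrays, against 36.7% of all probes, and 0 below, but the counts were 2 and 1 with normexp and loess and 1 and 1 without dye normalization. Tyk2, a JAK kinase, had log2 ratios of 1.14 and 0.46, with a mean of 0.80 (adjusted p = 0.122, limma). Stat5a, a relative of STAT3, was at -0.28 and 0.17, and Stat4 was well above background in 1 of 4 channel values and was not tested.

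The negative regulators lay below 0 on both arrays for 5 of 6 genes, with a median of -0.37, against 36.8% of all probes, and this count was the same under the 3 other scalings run. It would be 4 of 6 with the dimmer of the Ptpn11 clones. Socs3, which also shuts the signal off, was not in this list and was above 0 on both arrays with the deposited ratios. Socs2 was at -0.27 and -0.23, Pias3 at -0.08 and -0.24, and Pias4 at -0.49 and -0.48. The ratios of Socs2 and Pias3 lay within 2 spot errors of 0 on both arrays (errors of 0.19). Those of Socs1, Pias4 and the brighter Ptpn11 clone were over 2 spot errors below 0. Socs1, a close relative of Socs3 that also blocks JAK kinases, had signals of 343 with LIF-siRNA and 955 with scrambled siRNA on array 1, and 236 and 838 on array 2. Its log2 ratios were -1.48 and -1.83, with a mean of -1.65 and an adjusted p of 0.058 in limma. Socs1 thus lay below 0 on both arrays where Socs3 lay at 0.03 and 1.65, and the difference between the genes was not tested. Ptpn11, the phosphatase SHP2 that gp130 recruits, was at -0.43 and -1.73, while a dimmer clone of the same name was at -0.52 and 0.35. Ptpn2, a phosphatase that acts on JAK kinases and STAT proteins, was the exception, at 0.25 and 1.07.

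Among 17 other known targets of LIF or STAT3, 9 were above 0 on both arrays and 6 below, against 36.7% and 36.8% of all probes, with a median of 0.09. The 9 became 7 with each array centred on its median and 6 without dye normalization. Of all probes, 71.7% and 67.9% had a single sign on both arrays under these scalings, against 73.5% with the deposited ratios. Junb, an AP-1 factor, was at 0.42 and 1.80. Sox2, a factor of pluripotent cells, was at -2.999 and -1.69 (adjusted p = 0.061, limma). Klf5, a factor of the early embryo, was at -1.003 and -1.89 (adjusted p = 0.073), and the cyclin gene Ccnd3 at -1.04 and -1.63 (adjusted p = 0.067), both in limma. The targets thus held genes on both sides of 0, as the 8 genes did.

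Of 17 relatives and partners of the 9 genes that could be tested, 7 were above 0 on both arrays and 6 below, against 36.7% and 36.8% of all probes, with a median of -0.07. With median centring, and also without dye normalization, 5 were above and 5 below. Bcl2, a relative of Mcl1 that also holds back apoptosis, was at 0.59 and 1.76, on the other side of 0 from Mcl1. Icam2, a relative of Icam1, was at -2.02 and -1.87, with an adjusted p of 0.058 in limma and signals of 34.1 and 42.1 with LIF-siRNA against 139 and 154 with scrambled siRNA. Itgb2, a subunit of the integrins that bind both, was at 1.29 and 2.12 (adjusted p = 0.061, limma). Of 11 genes of the MAPK and PI3K branch, 4 were above 0 on both arrays and 4 below, against the same shares of all probes, with a median of -0.01 and a range of mean log2 ratios from -0.90 to 0.70. The counts were 3 above and 4 below with median centring, and 2 above and 5 below without dye normalization. Under these 2 scalings, 35.9% and 36.6% of all probes were below 0 on both arrays, and 71.7% and 67.9% had a single sign.

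**Figure D5:**
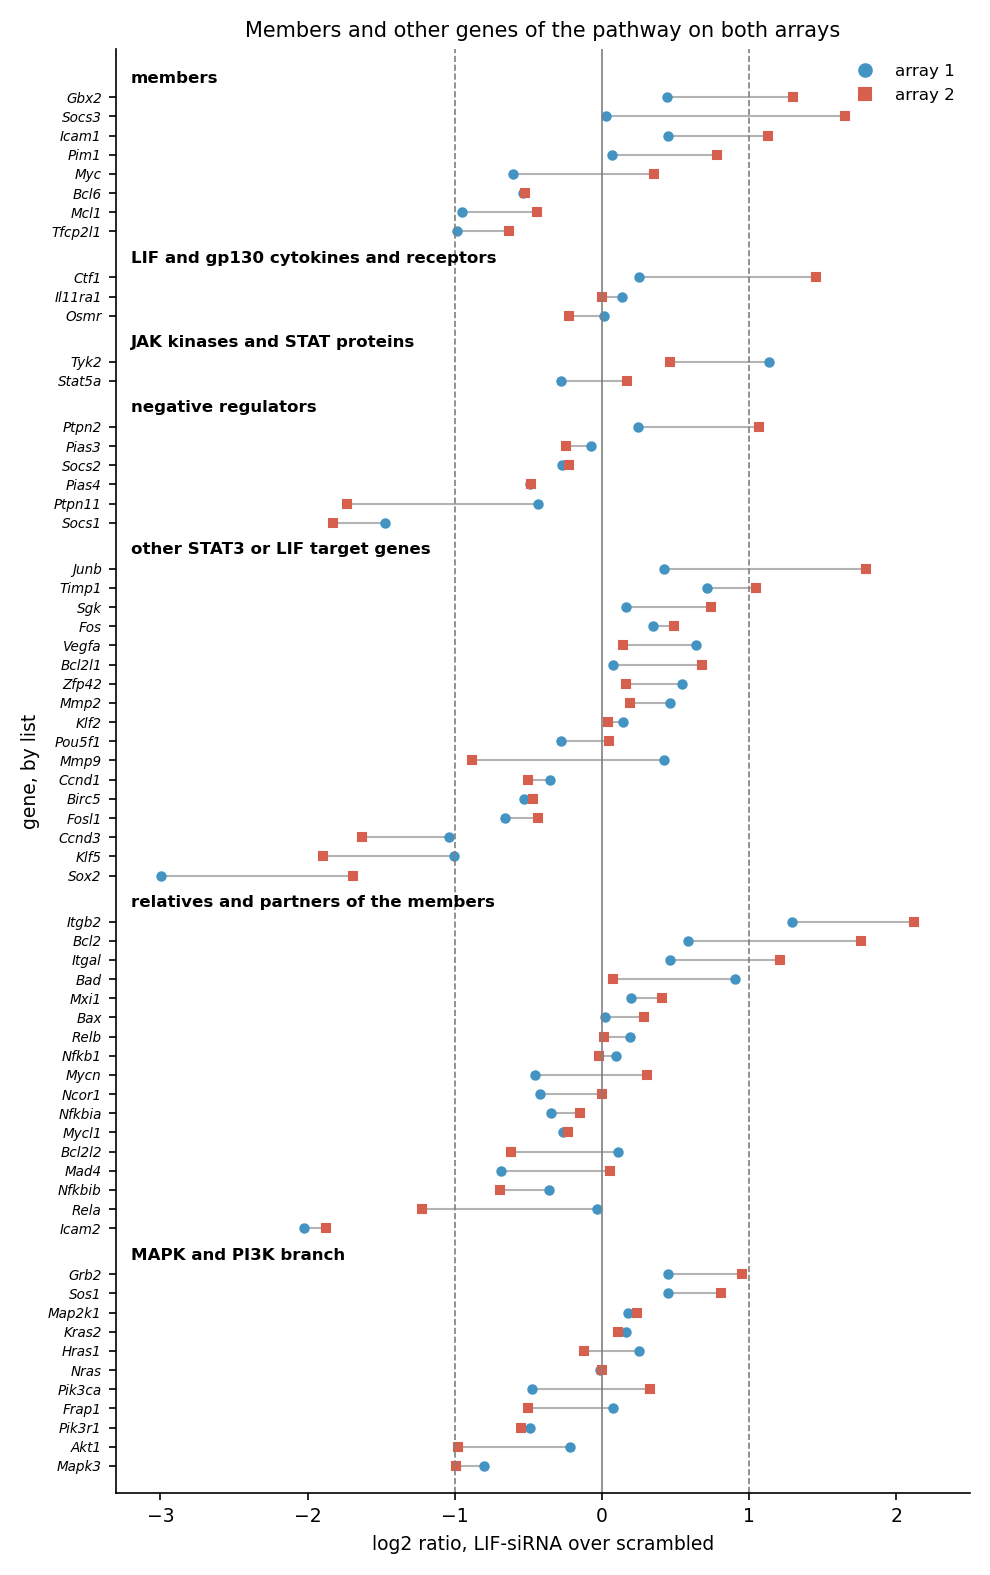
Log2 ratio of LIF-siRNA over scrambled siRNA on array 1 (blue circles) and array 2 (red squares) for the 8 genes and the 56 genes of 6 pathway lists, joined by a grey line for each gene. Dashed lines mark log2 ratios of -1 and 1; in the first group every red square is at or to the right of the blue circle, and the lists below hold genes of both orders.

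Markers of the labelled tissue and of other tissues were read. Of 5 embryo markers, 5 were well above background in both channels on both arrays. The same was true of 7575 of the 8712 gene spots without an outlier mark. Most spots thus passed, and the count cannot tell embryos from the stem cells named in the description field. Pou5f1, Sox2 and Zfp42 were also counted among the other targets. Zfp42, a marker of pluripotent cells, had signals of 31231 and 28609 with LIF-siRNA and 21414 and 25562 with scrambled siRNA, and Krt8, a keratin of the outer cells, was at log2 ratios of -1.73 and -2.16 (adjusted p = 0.058, limma). The cadherin gene Cdh1 was at 0.69 and 0.26, Pou5f1 at -0.28 and 0.05, and Sox2 at the values given above. Among markers of other tissues, the collagen gene Col3a1 had signals of 3752 and 3919 with LIF-siRNA and 1898 and 2249 with scrambled siRNA, and Col1a2 had 84.9 and 81.1 against 22.5 and 34.0. The scrambled siRNA signals of Col1a2 were not well above background on either array, and Col1a1 was not well above background in any channel, so no ratio is given for them. Hbb, of red blood cells, was at 0.75 and 0.77 with 1 clone and at -0.24 and -0.14 with another. The liver gene Apoa1 was at -1.52 and -1.12, and Ttr at -0.07 and -0.12. The part of such RNA in the values of the 9 genes was not tested.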

How the data were processed

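By sample titles and source names, 2 two-colour arrays compared embryos with LIF-siRNA (Cy5) and scrambled siRNA (Cy3); the description field of the labels speaks of untreated stem cells and was not followed. The authors deposited scanner files of Agilent software (Feature Extraction), in a version that differs between the file headers and the methods. The deposited intensity columns hold spot brightness, local background, the background-subtracted signal and the processed signal, dye-normalized by rank-consistent lowess. The deposited log10 ratio is that of processed Cy5 over Cy3. The deposited log2 table of the series follows the average brightness of both channels (Pearson r = 0.998) and gave no ratio. Genome build and clone sequences are not given in the sources used here.

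The log ratio was converted to log2 without control spots and 23 outlier spots. limma 3.58.1 (lmFit, eBayes, intercept, two-sided, Benjamini-Hochberg) in R 4.3.3 tested the 8079 probes whose spot was flagged above background in either channel of each array. Counts, motifs and plots were made with numpy 2.4.6, scipy 1.17.1, matplotlib 3.10.9 and pandas 2.3.3 (Python 3.11.15). Nothing states that the arrays came from separate pools, so p-values measure only the spread between these 2 arrays, whose number limits the precision.

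The members and lists were chosen with earlier results of these data known. The counts by spot error were chosen after values were seen, and the comparison of the arrays by ratio and by channel was not in the plan. Named were all 9 genes, list genes with a mean log2 ratio of at least 1 in size and the same sign on both arrays, LIF, its receptors, JAK and STAT genes, and the 3 probes nearest to the highest and lowest gene; others named in the text were chosen after their values were seen. Of several clones of a gene the brighter was used. Lists were the gp130 cytokines and receptors, JAK and STAT genes, negative regulators, other targets, relatives and partners, the MAPK and PI3K branch, and markers of embryo, blood, stroma and liver. Alternatives were the background correction and loess (normexp, offset 50), centring, no dye normalization, outlier and dim-probe filters, an intensity trend, the methods' t-test, each array alone and other thresholds.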

Additional observations from a re-analysis of the deposited data

How the results depend on the processing

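Of the 8 genes tested, Myc reversed: its log2 ratio was 0.35 without array 1 and -0.61 without array 2. The means of the others kept their direction in the settings run, as did their single arrays with the deposited ratios. Without dye normalization the array 1 ratios of Socs3 and Pim1 turned to -0.20 and -0.16. The adjusted p of these genes stayed above the threshold of 0.05 except for 2 genes. The 2 were Tfcp2l1 and Mcl1. Tfcp2l1 had an adjusted p of 0.038 with each array centred on its median and 0.011 with an intensity trend in the prior of limma. Its range was 0.011 to 0.193 in 8 settings. Mcl1 had 0.040 with that trend in limma, over a range of 0.040 to 0.223. The members called by limma thus numbered 1 with median centring and 2 with the trend, against 0, while all probes called numbered 1324 and 1133, against 0. Probes called were also 158 with normexp and loess and 234 with both channels required above background, where no member was called. The methods' t-test, unadjusted, called 865 probes and 1 member, Bcl6, whose ratios were nearly equal but within their spot errors, and after Benjamini-Hochberg adjustment it called 0.

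By the study's thresholds, applied here to the means of both arrays, 188 probes were up and 191 down. The methods do not state how the study combined its arrays, and these are not the counts it reported. Without the signal threshold they numbered 571 and 447, and 82 and 126 when each array had to pass. With 1 array left out, up-expression counts ran from 176 to 260, down-expression counts from 215 to 266 and members from 0 to 1, Socs3 passing without array 1. The median log2 ratio of the members, 0.15, ran from -0.26 to 0.57 with 1 array left out and was -0.13 without the dim-probe filter, where Bcl3 enters. The median of the negative regulators was -0.30 with normexp and loess, -0.43 with median centring and -0.36 to -0.35 with 1 array left out. That of the other targets was -0.00100 with median centring, and 0.05 to 0.14 with 1 array left out. That of the relatives was -0.0382 with normexp and loess, 0.00700 with median centring, -0.14 without the dim-probe filter and 0.0163 to 0.0213 with 1 array left out. That of the MAPK and PI3K branch ran from -0.000304 to 0.0751 with 1 array left out. The cause of these shifts was not tested.

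Both conditions share each array, so the log ratios already pair them, and limma tested that within-array difference. The log ratios form 1 group, so there was no second group to pair by replicate number. The series' own table holds brightness and gave no alternative. Single clones, 2 arrays and one dye orientation limit every value, while the spot of Bcl3 was not well above background, and the spot errors of Bcl6 exceeded its ratios.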
